A study of Mus musculus with 4 samples.

Results

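Hepatocytes take up fatty acids from blood, bind them in the cytosol and link them to coenzyme A before they can be oxidised or esterified, and 10 genes of these steps were chosen by name: membrane carriers, the liver fatty acid binding protein, the acyl-CoA binding protein and long-chain acyl-CoA synthetases. Under the rule that a probe set carries exactly 1 gene symbol in the platform annotation, 8 of these genes were measured by 16 probe sets. The arrays hold 12393 genes with such a probe set. The other 2 genes, both synthetases, are not analysed here.

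Livers came from adult male mice of strain C57BL6, killed 6 days after an injection of adenovirus. The virus carried mouse lipin 1beta (arrays labelled lipin, n = 2) or green fluorescent protein (arrays labelled GFP, n = 2), so both groups had received a virus, and no uninfected liver was analysed here. The sources used here do not give the promoter in the vector, the infected share of cells, or whether replicate arrays stand for different mice, so p-values may reflect technical spread alone. Lipin replicate 2 is labelled polyA RNA and the other arrays total RNA. Lipin 1 is a phosphatidate phosphatase that also works in the nucleus as a partner of PPAR alpha, the receptor that switches on many genes of fatty acid use in liver. The comparison asks how overexpression of lipin 1beta moves these transcripts.

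Cd36 is a membrane receptor that helps long-chain fatty acids into cells. The Slc27a genes encode fatty acid transport proteins, which also have acyl-CoA synthetase activity. Fabp1 carries fatty acids through the hepatocyte cytosol, and Dbi, the acyl-CoA binding protein, holds the activated product. The Acsl enzymes make long-chain acyl-CoA, and Fabp1, Slc27a2 and Cd36 are known targets of PPAR alpha.

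Signals are in arbitrary units from the MAS5 method, and levels of different probe sets cannot be compared. Median signals were 582 to 746 across the arrays. Transcripts that define hepatocytes, among them Alb and Ttr, were measured for all 8 genes of the marker list. Lpin1, the gene carried by the vector, read 7082 and 4632 on the GFP arrays, 3854 on lipin replicate 1 and 11087 on lipin replicate 2 with its brighter probe set. The dimmer one read 2730 and 1430 on the GFP arrays, 2261 on lipin replicate 1 and 6719 on lipin replicate 2. Lipin replicate 1 did not exceed the GFP range with either, so directions below rest on the labels. RNA degradation raises the beta-actin signal at the 3' end over that at the 5' end. This ratio was highest, 4.22, on GFP replicate 2, against 1.77 on GFP replicate 1, 2.85 on lipin replicate 1 and 2.86 on lipin replicate 2.

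Fabp1 stood higher in the arrays labelled lipin, at 2.42-fold and 2.01-fold with its 2 probe sets, and Slc27a2 at 1.56-fold. The brightest probe set of Cd36 was lower in both lipin arrays, but it is dim and 1 of its 4 values lay under the floor. The probe sets of Dbi, Acsl4 and Cd36 did not all point the same way within a gene. No member passed the test. With limma, which pools the spread over probe sets, an adjusted p under 0.05 was reached by 0 of 12 tested member probe sets in either direction, beside 0% of all 13576 probe sets tested. The adjusted p was 0.962 for each of the 12. At an unadjusted p under 0.05, 1 member probe set was higher (Fabp1, 1417556_at), where 2.47% of all tested were, and 1 was lower (Dbi, 1433991_x_at), where 1.92% were. For a single probe set the smallest two-sided exact permutation p that this design allows is 0.333.

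Differences are given as log2 of the signal, with signals under 119.5 raised to that floor, and the test took probe sets with a geometric mean signal of at least 373. The 12 that passed covered all 8 genes. In 5 of the 12 the lipin arrays lay above both GFP arrays, where 17.1% of all probe sets tested did. In another 5 of them both lay below both GFP arrays, where 15.9% of all did. These lower ones came from Dbi, Acsl4 and Cd36 alone, and that of Cd36 reached the limit on signal through the GFP arrays. Probe sets of the same gene share their RNA, so neither count is one of independent values. The median difference over the 12 was 0.26, against 0.0038 over all probe sets tested, and 7 lay above 0 and 5 below. Refits with 1 array left out took the member probe sets that reached the limit on signal there, not always the same 12. The median was then -0.019 without GFP replicate 2 and 0.0094 without lipin replicate 2. Without lipin replicate 1 it was 0.46, over 13 probe sets. Lipin replicate 2 had the highest signal for 6 of the 12 and GFP replicate 2 the lowest for 5. The 4 probe sets below the limit, 2 of Cd36 and 2 of Acsl4, are given by their signals.

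**Figure D1:**
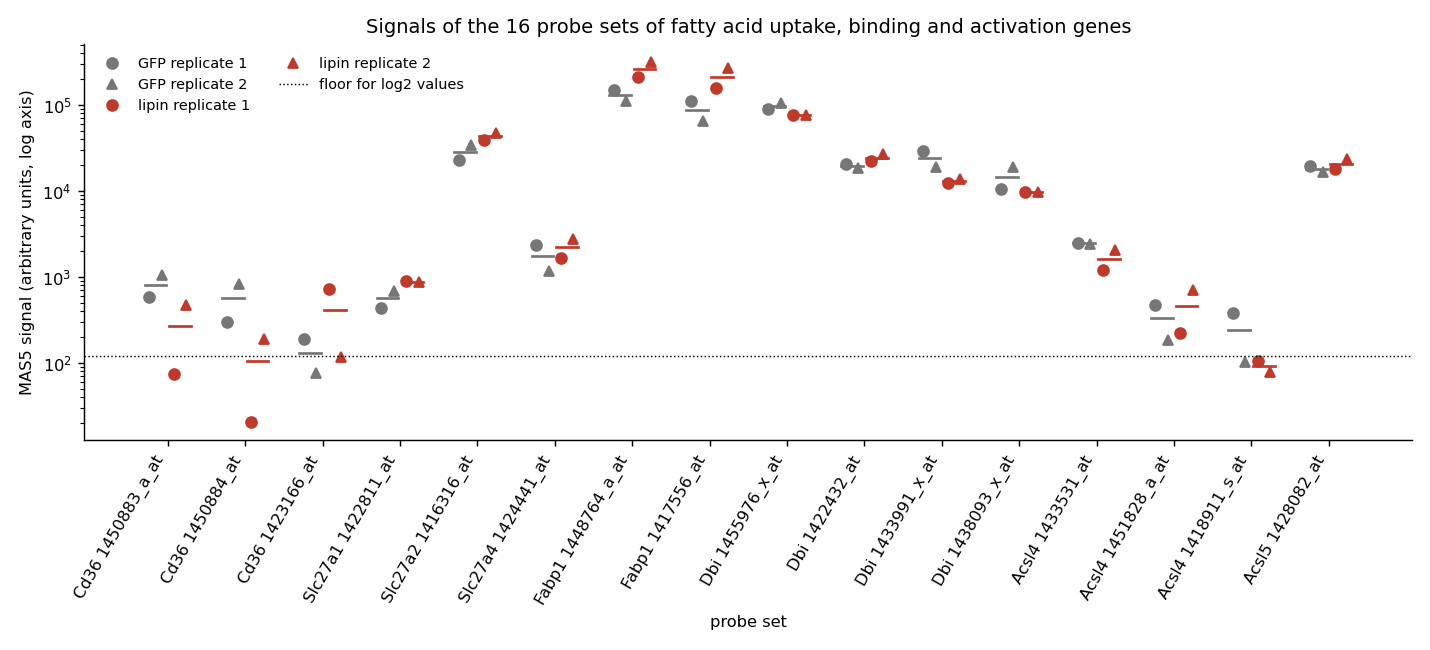
MAS5 signal (log axis, arbitrary units) of each of the 16 probe sets on the 4 arrays, GFP in grey and lipin in red, circles for replicate 1 and triangles for replicate 2, with bars at the group means and a dotted line at the floor of 119.5. Both red points lie above both grey points for Fabp1, Slc27a1, Slc27a2 and 1 Dbi probe set, and below them for 2 Cd36, 3 Dbi and 1 Acsl4 probe sets.

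The stretches upstream of Fabp1, Slc27a2 and Cd36 are shown because all 3 are known targets of PPAR alpha, the partner of lipin 1. Whether other members are targets too was not considered. PPAR alpha binds, with its partner RXR, to direct repeats of a hexamer close to AGGTCA with a single base between the copies. Each line gives the 250 bases before the gene's start in RefSeq, build GRCm38.p6, read 5′ to 3′ on the gene's strand. Capitals mark AGGTCA on either strand, or 2 copies of AGGNCA in the same orientation with 1 base between.
Fabp1 (chr6:71199629-71199878, plus strand): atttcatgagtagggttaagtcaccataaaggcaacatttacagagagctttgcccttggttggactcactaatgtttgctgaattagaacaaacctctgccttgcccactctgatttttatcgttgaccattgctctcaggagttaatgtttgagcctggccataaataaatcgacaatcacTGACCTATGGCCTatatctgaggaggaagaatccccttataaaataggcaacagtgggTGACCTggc
Slc27a2 (chr2:126552774-126553023, plus strand): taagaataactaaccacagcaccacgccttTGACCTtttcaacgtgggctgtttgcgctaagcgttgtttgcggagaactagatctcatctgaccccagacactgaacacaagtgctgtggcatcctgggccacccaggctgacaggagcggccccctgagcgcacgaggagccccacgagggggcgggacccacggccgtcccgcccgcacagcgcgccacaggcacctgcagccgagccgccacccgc
Cd36 (chr5:17835897-17836146, minus strand): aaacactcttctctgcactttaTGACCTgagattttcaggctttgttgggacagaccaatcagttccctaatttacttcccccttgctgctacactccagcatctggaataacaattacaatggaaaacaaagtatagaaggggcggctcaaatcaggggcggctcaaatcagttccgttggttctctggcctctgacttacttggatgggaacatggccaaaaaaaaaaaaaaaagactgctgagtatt

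The spaced repeat was found in the Fabp1 stretch, 67 to 55 bases before the start on the opposite strand, and it overlaps a copy of AGGTCA there. Of all 32851 such stretches, 0.338% held it, and among the 11 stretches of the 8 member genes that of Fabp1 was the single one. The single hexamer AGGTCA occurred in 3 of these 11 stretches, those shown, and in 14% of all stretches. In Fabp1 a further copy lay 9 to 4 bases before the start. The copy in Slc27a2 lay 220 to 215 bases before the start and that in Cd36 228 to 223. Such matches describe letters in these windows and are not shown to be bound.

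Among the genes of uptake at the membrane, Slc27a2 was higher in the arrays labelled lipin, Cd36 was lower with 2 of its 3 probe sets and higher in mean with the third, and neither gene passed the test. Slc27a2 encodes the transport protein that also activates very long chain fatty acids in liver. Its probe set read 22710 and 34192 on the GFP arrays and 39436 and 47719 on the lipin arrays. Both lipin arrays lay above both GFP arrays, and GFP replicate 2 was nearer to lipin replicate 1 than to GFP replicate 1. The group means were 28451 ± 8119 and 43578 ± 5857 (SD, n = 2 each). The log2 difference was 0.64 ± 0.35 (SE; 95% interval -0.098 to 1.38; limma adjusted p = 0.962). It stood at 0.34 without GFP replicate 1 and at 0.93 without GFP replicate 2.

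Slc27a1, a transport protein best known from muscle and fat, was dim. It read 441 and 685 on the GFP arrays and 889.7 and 866 on the lipin arrays, which again lay above both GFP values. Lipin replicates agreed closely here, with a mean of 878 ± 16.9, and the GFP arrays averaged 563 ± 172 (SD, n = 2 each). The log2 difference of Slc27a1 was 0.68 ± 0.86 (95% interval -1.17 to 2.52; limma adjusted p = 0.962). Leaving out GFP replicate 1 lowered it to 0.36, and leaving out GFP replicate 2 raised it to 0.99. Of 4 marker genes of skeletal muscle, 1 passed the limit on signal, Ckm, a muscle creatine kinase. It read 861 and 744 on the GFP arrays and 939 and 1629 on the lipin arrays, also without overlap, a log2 difference of 0.63 ± 0.68. Among the dimmer ones, Acta1 and Myh4 went the other way without overlap, with lipin values under the floor. Acta1 read 393.5 and 117.5 on the GFP arrays and 59.6 and 80.1 on the lipin arrays. Myh4 read 150.8 and 511.4 against 65.6 and 67.8, and the groups of Tnnt3 overlapped. The muscle list's summed signal was 1987 and 1463 on the GFP arrays and 1088 and 2076 on the lipin arrays, and its part in Slc27a1 was not tested.

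Slc27a4, a transport protein found in many tissues, did not separate the groups. Its signals were 2360.0 and 1172 on the GFP arrays and 1664 and 2795 on the lipin arrays, so within each group the arrays differed more than the group means, 1766 ± 840.3 and 2229 ± 799.7 (SD, n = 2 each). The log2 difference was 0.38 ± 0.53 (95% interval -0.75 to 1.5; limma adjusted p = 0.962), and it turned to -0.13 without GFP replicate 2.

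Cd36 was read by 3 probe sets, all dim. The brightest, 1450883_a_at, read 587 and 1041 on the GFP arrays and 74.5 and 469.5 on the lipin arrays. Both lipin values lay below both GFP values, and that of lipin replicate 1 lay under the floor. Its log2 difference was -1.72 ± 1.34 (95% interval -4.58 to 1.13; limma adjusted p = 0.962), and the group means were 814 ± 321 and 272 ± 279 (SD, n = 2 each). This probe set reached the limit on signal through the GFP arrays. The difference was -0.74 without lipin replicate 1 and -2.71 without lipin replicate 2.

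A second Cd36 probe set, 1450884_at, was too dim to test and had the same order of arrays, with 297 and 837.5 on the GFP arrays and 20.3 and 192 on the lipin arrays. The third, 1423166_at, went against both. It read 188 and 76.1 on the GFP arrays and 717 and 116.5 on the lipin arrays, and only lipin replicate 1, the lowest array for the other Cd36 probe sets, stood above the rest. The platform annotation ties all 3 to the same source sequence.

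Cd36 is abundant in fat cells, macrophages and endothelium, and in bulk liver fewer cells of a type and less RNA per cell cannot be told apart. For 4 measured adipocyte markers the summed signal was 1621 and 3158 on the GFP arrays and 1397 and 2182 on the lipin arrays. This sum was highest on GFP replicate 2 and lowest on lipin replicate 1, as for the brightest Cd36 probe set. The single markers did not share this order. Lep (1111) and the brightest Fabp4 probe set (1252) were highest on GFP replicate 2, but Adipoq (708.5) and Retn (914) on lipin replicate 2. The 8 macrophage markers summed to 49252 and 28308 on the GFP arrays and 44606 and 30936 on the lipin arrays, and the 7 endothelial markers to 12033 and 16680 against 13661 and 15490, with overlapping groups. In none of these lists was a gene under the floor on all arrays. Of the list genes tested, 0 of 2 adipocyte, 0 of 7 macrophage and 0 of 6 endothelial genes passed with limma. At an unadjusted p under 0.05 the count was also 0 in each list. In 2 further lists the summed signals of the groups did not overlap. The 6 lymphocyte markers summed to 3845 and 4499.7 on the GFP arrays and 3082 and 2796 on the lipin arrays. Of these, 3 of 3 tested lay below 0, with a median log2 difference of -1.20. But Cd79a and Cd8a reached the limit on signal through the GFP arrays, which favours a value below 0. Of the markers too dim to test, Cd3g was highest on lipin replicate 2 (882.5), Cd2 on lipin replicate 1 (349) and Cd3e on GFP replicate 2 (699). The 6 stellate and fibroblast markers summed to 33715 and 48642 on the GFP arrays and 17345 and 33508 on the lipin arrays. Most of this sum was Dcn, whose own groups overlapped. It read 29167 and 41993.5 on the GFP arrays and 11734 and 29832 on the lipin arrays. Of these markers, 3 of 4 tested lay below 0, with a median of -0.77. With limma 0 genes of either list passed. At an unadjusted p under 0.05, 1 was lower, the stellate marker Dcn, where 1.92% of all probe sets tested were. The part of any of these cells in the Cd36 or Acsl4 values was not tested.

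Of the binding proteins, Fabp1 was higher in the arrays labelled lipin with both of its probe sets, and the probe sets of Dbi gave different directions. Probe set 1417556_at of Fabp1 read 111600 and 65823 on the GFP arrays and 159803 and 268450 on the lipin arrays. Probe set 1448764_a_at read 149068 and 112172 on the GFP arrays and 212798 and 317136 on the lipin arrays. Both put the arrays in the same order, from GFP replicate 2 at the bottom through GFP replicate 1 and lipin replicate 1 to lipin replicate 2 at the top, with no overlap between the groups.

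Group means of the first Fabp1 probe set were 88712 ± 32369 for GFP and 214127 ± 76825 for lipin (SD, n = 2 each). Its log2 difference was 1.27 ± 0.47 (95% interval 0.28 to 2.27; unadjusted p = 0.0156, limma adjusted p = 0.962). The second gave 1.01 ± 0.48 (95% interval -0.016 to 2.03). As probe sets of the same transcript they share their RNA and are not independent. With GFP replicate 2 left out, whose actin ratio was 4.22, they stood at 0.89 and 0.80. Without lipin replicate 2, the polyA sample and the one with the highest Lpin1 signal, they stood at 0.90 and 0.72, with a limma unadjusted p of 0.202 for the first. When lipin replicate 1 was left out they were 1.65 and 1.29.

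Fabp1 is a hepatocyte transcript. The 8 hepatocyte markers, each counted by its brightest probe set, had a median log2 difference of 0.20, with 6 above 0 and 2 below. In 2 of them, Ahsg (0.77 ± 0.40) and Apob (0.59 ± 0.38), the lipin arrays lay above both GFP arrays, as for Fabp1, where 17.1% of all probe sets tested did. A dimmer Ttr probe set did so too (0.59 ± 0.53), whereas the brightest of Ttr gave -0.074 with overlapping groups. Summed over the 8 markers, the signal was 1838745.5 and 3892183 on the GFP arrays and 2559330 and 3061127 on the lipin arrays. These groups overlapped. No marker passed with limma, also at an unadjusted p under 0.05 (0 of 8). The part of hepatocyte RNA, RNA quality or RNA type in the Fabp1 difference was not tested.

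Dbi was read by 4 probe sets, of which 1 was higher and 3 lower in the arrays labelled lipin, each with no overlap between the groups. The higher one, 1422432_at, read 20523 and 18779 on the GFP arrays and 22166 and 26928 on the lipin arrays, a log2 difference of 0.32 ± 0.32 (95% interval -0.36 to 0.99). Its name ends in the plain suffix that marks probes designed for a single transcript. The lower ones carry the suffix _x_at, which marks probes that can also bind other sequences.

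Among these, 1433991_x_at read 29614 and 19232 on the GFP arrays and 12383 and 13751 on the lipin arrays, a log2 difference of -0.87 ± 0.33 (95% interval -1.58 to -0.17; unadjusted p = 0.0190, limma adjusted p = 0.962). The limma unadjusted p was 0.122 without GFP replicate 1, where the difference was -0.56, 0.115 without lipin replicate 1, 0.0611 without lipin replicate 2 and 0.00549 without GFP replicate 2. Probe set 1438093_x_at read 10634 and 18789 on the GFP arrays and 9618 and 9724 on the lipin arrays, which lay within 1.01-fold of each other. Its difference was -0.55 ± 0.35, and -0.14 without GFP replicate 2. The brightest, 1455976_x_at, read 89412 and 105310 on the GFP arrays and 77015 and 75935 on the lipin arrays, a difference of -0.34 ± 0.38. The GFP arrays were in opposite order for the first of the 3 and the other two. Which probe sets follow the Dbi transcript alone was not tested.

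**Figure D2:**
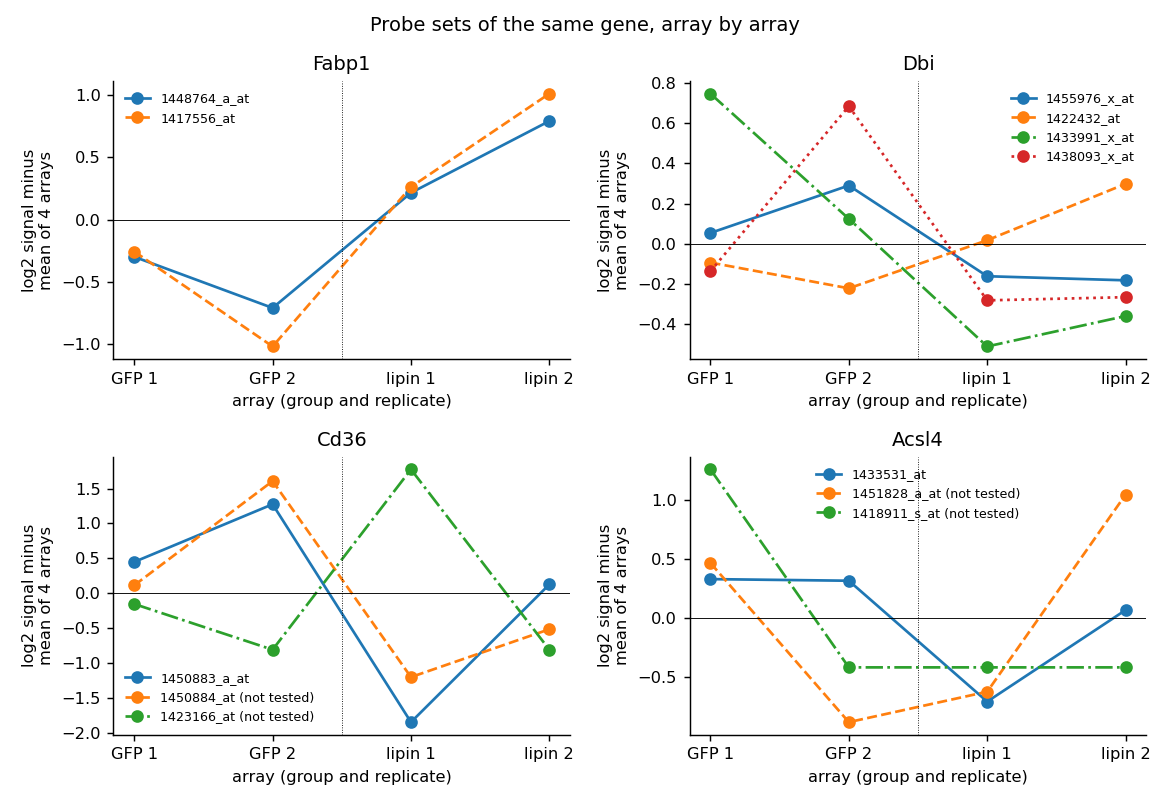
Log2 signal of each probe set minus its mean over the 4 arrays, for the 4 genes read by several probe sets, with the arrays along the horizontal axis and a dotted line between GFP and lipin; lines only join the points of a probe set. The Fabp1 probe sets run together, from -0.71 and -1.02 on GFP replicate 2 to 0.79 and 1.01 on lipin replicate 2, whereas those of Dbi, Cd36 and Acsl4 cross.

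Of the activating enzymes, Acsl5 was level and Acsl4 lower with its brightest probe set. Acsl5, a synthetase abundant in intestine and liver, read 19324.5 and 16589 on the GFP arrays and 18128 and 23417 on the lipin arrays. The groups overlapped, since lipin replicate 1 lay between the GFP arrays. The log2 difference was 0.20 ± 0.32 (95% interval -0.48 to 0.88; limma adjusted p = 0.962), so a change of up to 1.85-fold in the arrays labelled lipin lies inside the interval.

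Acsl4, a synthetase that prefers arachidonic acid, had 1 tested probe set. It read 2470.3 and 2447 on the GFP arrays and 1201 and 2059 on the lipin arrays. The GFP values nearly coincided, with a mean of 2459 ± 16.5, and both lipin values lay below them, with a mean of 1630.0 ± 606 (SD, n = 2 each). The log2 difference was -0.64 ± 0.49 (95% interval -1.69 to 0.40; limma adjusted p = 0.962). Leaving out lipin replicate 1 gave -0.26, and leaving out lipin replicate 2 gave -1.03.

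The dimmer Acsl4 probe sets did not repeat this order. Probe set 1451828_a_at read 472 and 185 on the GFP arrays and 221 and 706 on the lipin arrays, and the groups overlapped. Probe set 1418911_s_at read 383 on GFP replicate 1, and 101 on GFP replicate 2, 106 on lipin replicate 1 and 78.6 on lipin replicate 2 lay under the floor. Both were too dim to test.

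**Figure D3:**
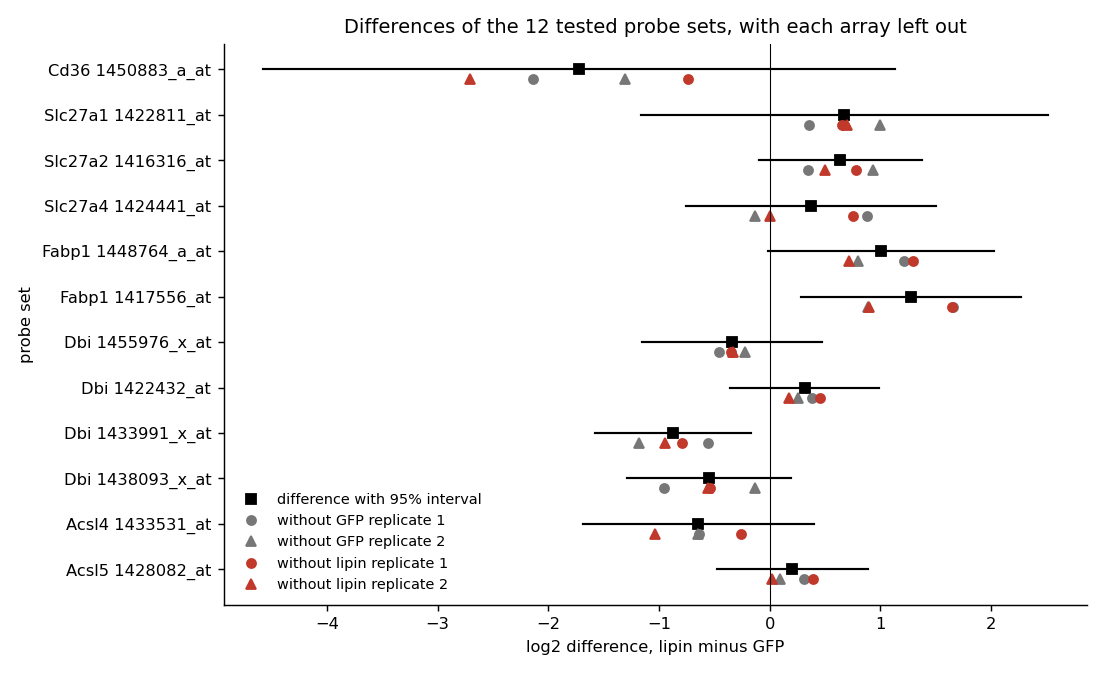
Log2 difference, lipin minus GFP, of the 12 tested probe sets (squares, with limma's 95% interval) and, below each, the difference with 1 array left out, grey for GFP and red for lipin arrays, circles for replicate 1 and triangles for replicate 2. Intervals of Fabp1 1417556_at (0.28 to 2.27) and Dbi 1433991_x_at (-1.58 to -0.17) lie off 0 before adjustment, and that of Cd36 (-4.58 to 1.13) is the widest.

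**Figure D4:**
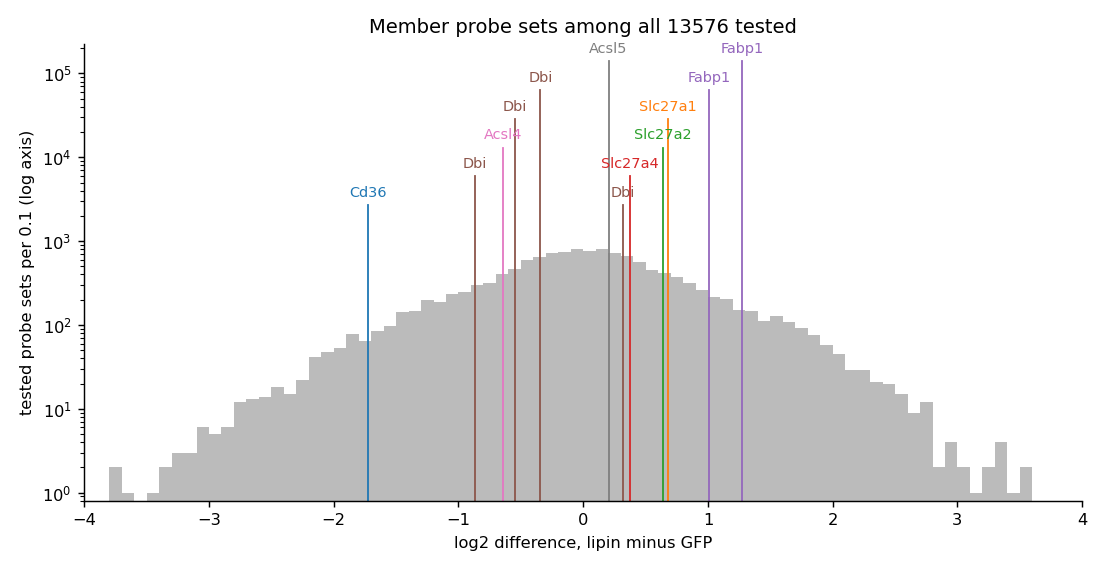
Histogram of the log2 differences, lipin minus GFP, of all 13576 probe sets tested (log count axis, bins of 0.1), with coloured lines at the 12 member probe sets. The members run from -1.72 for Cd36 to 1.27 for Fabp1, and all 12 lie inside the range of the other probe sets.

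Other genes of these steps gave no call either, each counted by its brightest tested probe set. Of 16 further transporters and acyl-CoA synthetases, 9 were tested, with a median log2 difference of 0.51, 7 above 0 and 2 below. With limma 0 passed in either direction, and at an unadjusted p under 0.05 1 was higher and 0 lower, where 2.47% and 1.92% of all probe sets tested were. The lipin arrays lay above both GFP arrays in 5 of these genes and below both in 1, beside 17.1% and 15.9% of all probe sets tested. Acsf2, a medium-chain acyl-CoA synthetase of mitochondria, read 2657.5 and 2196 on the GFP arrays and 4020.2 and 4687 on the lipin arrays, a log2 difference of 0.85 ± 0.39 (unadjusted p = 0.0491). Slc27a5, the liver's bile acid and fatty acid transport protein, gave 0.70 ± 0.43, and Acsm1, a medium-chain synthetase, 0.54 ± 0.35.

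Of 14 other fatty acid and acyl-CoA binding proteins, which include the adipocyte marker Fabp4, 8 were tested, with a median of -0.49, 3 above 0 and 5 below. Dbil5, a relative of Dbi best known from testis, read 968 and 1077 on the GFP arrays and 167 and 123 on the lipin arrays, a difference of -2.83 ± 1.42. It reached the limit on signal through the GFP arrays, and the lipin values lay near the floor. Its second probe set was too dim to test and had its highest signal, 1153, on lipin replicate 1. Got2, a mitochondrial aminotransferase also described as a membrane fatty acid binding protein, gave 0.59 ± 0.32 and, with a dimmer probe set, 0.063 ± 0.33. Fabp2, the intestinal binding protein, gave -0.54 ± 0.40 with overlapping groups, 18092 and 7028 on the GFP arrays and 8096 and 7461.5 on the lipin arrays. With limma 0 of the 8 passed in either direction, also at an unadjusted p under 0.05.

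Acyl-CoA thioesterases undo activation by splitting acyl-CoA. Of 11 such genes 7 were tested, with a median of 0.0055, 4 above 0 and 3 below, and 0 passed with limma in either direction, also at an unadjusted p under 0.05. Acot1, the cytosolic enzyme induced by PPAR alpha, gave -0.79 ± 0.49, Acot7 1.09 ± 0.87 and Acot3, a peroxisomal enzyme, -0.64 ± 0.62.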

How the data were processed

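Each deposited value is a linear signal intensity that the authors obtained with MAS5, per the submitters' processing notes; its version, the scaling target and the genome build were not stated. MAS5 scales arrays linearly, and values of dim probe sets are noisy. The values were used unchanged. After 64 of 22690 probe sets (controls) were set aside, signals below the 20th percentile, 119.5, were set to it and converted to log2. The 13576 probe sets whose average log2 signal reached the 40th percentile entered a linear model across all genes in limma 3.58.1 (R 4.3.3; intensity trend; 12.7 prior degrees of freedom), with two-sided tests and Benjamini-Hochberg adjusted p-values. The fit was checked on simulated data. The number of arrays limits the precision.

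The platform annotation gave 1 symbol to 20380 probe sets and several to 691, and it did not list 1555. Members and gene lists were chosen with earlier results of these data known. Every probe set of the 8 measured members is described. From each further pathway list up to 3 genes are named, by the smallest p of their brightest tested probe set. Also given are Lpin1 as a check of the labels, and marker lists of hepatocytes, macrophages, endothelium, adipocytes, lymphocytes, stellate cells and muscle.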

Additional observations from a re-analysis of the deposited data

How the results depend on the processing

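The fit was repeated with quantile or median scaling, with higher and lower floors or limits on signal, with a robust or untrended variance, with a replicate block, at a threshold of 0.1, and with each array left out. In all of them 0 member probe sets passed in either direction. Of 164 alternative values of the 12 tested probe sets, 163 kept their sign and side of the threshold. The variance, the block and the limit on signal can alter the p-value of a difference but not the difference. Floors likewise leave the difference of a bright probe set as it was, so many of these signs were fixed in advance. Slc27a4 turned to -0.13 without GFP replicate 2, in a leave-one-out range up to 0.88. The lowest adjusted p of a member under any alternative was 0.236, for Fabp1 with the replicate block. Leaving out arrays, the median over the members tested in each fit ran from -0.019 (without GFP replicate 2) to 0.46 (without lipin replicate 1). It was 0.0094 without lipin replicate 2. In 13 other settings the members' median ran from 0.21 to 0.38. Over all probe sets, the counts ran from 0 to 8 higher and from 0 to 6 lower with an array left out, both highest without lipin replicate 1. With the replicate block 34 were higher and 18 lower; same-numbered arrays deviated together with a correlation of only 0.028, so the numbers were not taken as a pairing. The brightest Cd36 probe set fell below the limit on signal without either GFP array and was not tested there. The causes of these shifts were not tested. Signal over background is not known for single probe sets, since no detection calls were used here.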
